A study of Mus musculus with 2 samples.

Results

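The genes described here are 35 genes of fatty acid and sterol synthesis, measured in mouse bone marrow-derived macrophages without c-Maf (c-Maf-/-) and in macrophages that kept 1 copy of it (c-Maf+/-). They were chosen by symbol, with the results of these 2 arrays already known, and every probe that carries a current or older symbol of a member was taken. All 35 members had a probe (54 probes in all). A gene value was formed for the 34 members with a probe well above background on both arrays (49 probes), out of 12406 genes measured in this way. Marrow of each genotype was grown for 5 days in M-CSF supplied as CMG14-12 culture medium, and was stimulated at the end with LPS, the endotoxin of Gram-negative bacteria, at 100 ng/ml over 5 h. RNA of each genotype went on 1 one-colour array of a shared slide.

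The c-Maf+/- cells had also lost a copy of the gene. Wild-type cells and cells without LPS were not analysed here, so no value is a response to LPS. The labels do not state the allele, the strain, the sex, the age or the number of mice. A single array stands for each genotype, so differences have no replicate check and are given without p-values, as differences between these 2 arrays. Because the cells were measured in bulk, fewer cells that express a gene and less RNA per cell cannot be told apart.

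Fatty acids are built from cytosolic acetyl-CoA, which is carboxylated to malonyl-CoA and then assembled by fatty acid synthase. Elongases lengthen the product and desaturases add double bonds. Cholesterol is built from the same acetyl-CoA, first through the mevalonate steps to squalene and then through oxidation and cyclisation of squalene to lanosterol and its trimming to cholesterol. Both branches are known to be driven by the SREBP transcription factors, which are held in the endoplasmic reticulum by SCAP and INSIG proteins when sterols are plentiful. In macrophages these pathways supply membranes, and LPS is known to remodel them.

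The genotype labels were checked on Maf, which encodes c-Maf. One Maf probe had a signal of 12.6 in c-Maf-/- cells, not well above background, against 15102 in c-Maf+/- cells, which made it at least 636-fold lower. Macrophage markers were present on both arrays, with 8 of 8 well above background and a summed signal of 429464 in c-Maf-/- against 403185 in c-Maf+/- cells. Their log2 differences were split, with 4 above 0 and 4 below, from -0.58 (Fcgr1) to 0.58 (Lyz2). Adipocytes are rich in the enzymes studied here, and bone marrow holds them. Of 6 adipocyte markers, Adipoq, Plin1, Lep, Cfd and Cidec were not well above background on either array, Retn passed on the c-Maf-/- array alone, and the summed signal was 59.2 in c-Maf-/- against 52.8 in c-Maf+/- cells. Neutrophil markers were lower, with a median log2 difference of -0.92 over 6 of 6 and a summed signal of 4846 in c-Maf-/- against 7632 in c-Maf+/- cells, and their part in the results was not tested. Stroma markers had a median of -0.60 over the 4 of 5 measured, with a summed signal of 5624 in c-Maf-/- against 5389 in c-Maf+/- cells, likewise not tested. That sum was mostly Lepr, with 5149 in c-Maf-/- against 4683 in c-Maf+/- cells (0.11), while Col1a1 was at -0.88 and Dcn at -0.95. A positive log2 difference means a higher value in c-Maf-/- cells, once each array had been scaled to its 75th percentile, and folds are of the scaled values.

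As a set, the members were mostly higher in c-Maf-/- macrophages. The log2 difference was above 0 in 28 of 34 members, a sign found in 46.3% of all measured genes, and the median was 0.36, against -0.022 over all genes. The members past 2-fold on the higher side were 4, namely Scd2, Scd1, Stard4 and Mvd, where 1.43% of all genes were. On the lower side there were 0, where 1.73% of all genes were. At the threshold of 1.5-fold, 9 members were higher, where 5.38% of all genes were, and 0 were lower, where 6.5% were. Besides the first 4, the 9 were Sqle, Msmo1, Acss2, Hsd17b7 and Fdps. The members were chosen with this contrast in view, so these counts describe them and nothing is read from the shares.

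The error printed after a log2 difference is that of the scanner software, which assumes an error of 10% on each signal and adds the background noise of dim spots. It covers the spots alone, not cultures or mice. No member had repeat spots. By this error, 15 members were higher by more than 2 errors, where 9.62% of all genes were, and 0 were lower by as much, where 12.5% of all genes were. For a gene with 2 or more measured probes, the error is that of their mean, computed as if the probes were independent. It is thus smaller for genes with more probes, and passing 2 errors depends in part on the number of probes. The error also leaves out disagreement between probes of a gene. The 15 thus include Fads2, whose probes had opposite signs (0.91 and -0.092). Spots repeated for other probes differed by less than this, with a median SD of 0.06 over 211 probes, and different probes of a gene had a median SD of 0.09 over 3452 genes.

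**Figure D1:**
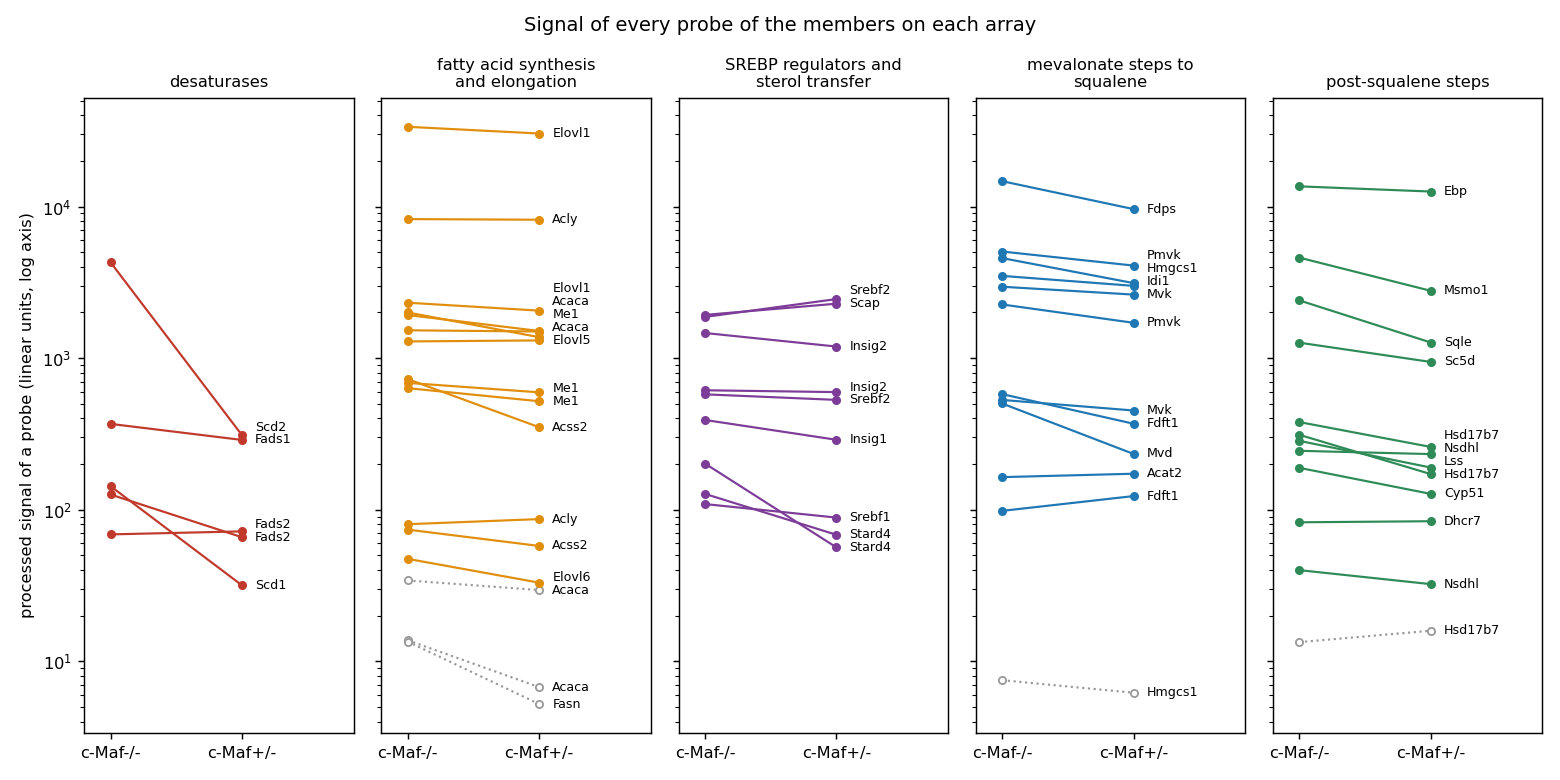
Processed signal of each of the 54 probes (vertical axis, linear units drawn on a log axis) on the c-Maf-/- array (left) and the c-Maf+/- array (right), in 5 panels by pathway step. Each line is a probe, and grey dotted lines with open points are the 5 probes not well above background on both arrays. Scd2 and Scd1 have the steepest lines.

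The desaturase step held the members that differed most. Scd2, a stearoyl-CoA desaturase that makes monounsaturated from saturated fatty acids and the form found in brain and many other mouse tissues, had a signal of 4291 in c-Maf-/- cells against 311 in c-Maf+/- cells. Its log2 difference of 3.76 ± 0.21, or 13.6-fold, ranked 1 among the 12406 measured genes. Scd1, the desaturase best known from liver and fat, had a signal of 143 in c-Maf-/- cells against 31.7 in c-Maf+/- cells. That was a log2 difference of 2.15 ± 0.29, or 4.43-fold, at rank 11. The c-Maf+/- signal of Scd1 was close to the lowest signal called well above background on that array, 22.3, and its log2 difference was 1.18 after normexp correction of the background and 1.39 when none was subtracted. The Scd2 value was 3.46 and 3.55 in those settings.

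Each of Scd1 and Scd2 rested on 1 probe of 60 bases, at chr19:44469387-44469446 for Scd1 and chr19:44381024-44381083 for Scd2 (build mm9, from the files). Whether these stretches are exon or UTR is not stated, as no mm9 annotation was used. The longest run of bases that the 2 probes share is 6, so they do not read the same stretch. The probes were compared only with each other, so whether the Scd1 probe also picks up Scd2 RNA was not tested. Their relatives in the gene list of other fatty acid genes differed less. Scd4 had signals of 47.7 in c-Maf-/- against 29.2 in c-Maf+/- cells, a log2 difference of 0.68 ± 0.40. Scd3, which is named here after its value was seen, had a log2 difference of 0.16 ± 0.18 over 2 probes.

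The front-end desaturases, which make polyunsaturated fatty acids, differed less and less evenly. Fads1, the delta-5 desaturase, had a signal of 368 in c-Maf-/- against 289 in c-Maf+/- cells, a log2 difference of 0.33 ± 0.21. Fads2, the delta-6 desaturase, averaged 0.41 ± 0.18, but its 2 probes did not go together. One had signals of 126 in c-Maf-/- against 65.8 in c-Maf+/- cells (0.91), and the other 68.7 in c-Maf-/- against 71.9 in c-Maf+/- cells (-0.092). The first of these is annotated to a cDNA clone and the second to the RefSeq transcript, so the direction of Fads2 rests on which probe is read. The median of the 4 desaturases was 1.28.

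**Figure D2:**
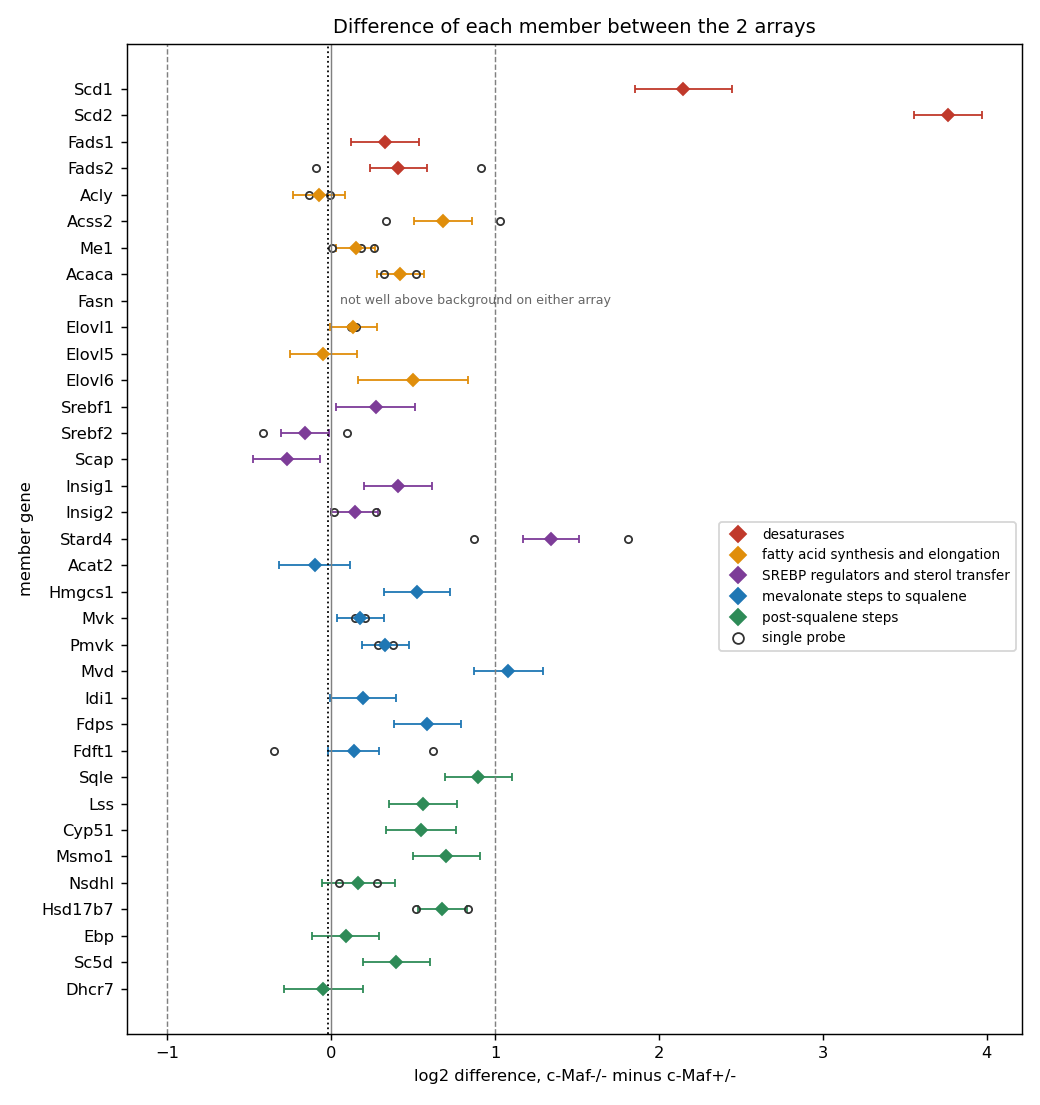
Log2 difference, c-Maf-/- minus c-Maf+/- (horizontal axis), of each member (vertical axis), coloured by pathway step. Diamonds are gene values with the error of the scanner software, open circles are single probes where a gene has more than 1, dashed lines mark 2-fold, the solid line marks 0 and the dotted line marks the median of all genes at -0.022. Scd2, Scd1, Stard4 and Mvd lie beyond 2-fold on the higher side.

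Enzymes that supply and build fatty acids differed less than the stearoyl-CoA desaturases. The median over the 7 measured of 8 was 0.15, with 5 above 0, 1 past 1.5-fold on the higher side and 0 past 2-fold. Acss2, which makes cytosolic acetyl-CoA from acetate, was highest at 0.68 ± 0.18. Its 2 probes had signals of 727 and 73.9 in c-Maf-/- cells against 350.0 and 57.6 in c-Maf+/- cells, for log2 differences of 1.03 and 0.33. Both probes of Acss2 were thus higher in c-Maf-/- cells, by unequal amounts.

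Acaca, acetyl-CoA carboxylase 1, makes malonyl-CoA, the building block of chain growth. It had signals of 2001 and 1925 in c-Maf-/- against 1374 and 1510 in c-Maf+/- cells on probes that overlap in all but 1 base. The gene value was 0.42 ± 0.14, an error that takes these overlapping probes as independent. Another Acaca probe passed the detection call on the c-Maf-/- array alone (34.1 in c-Maf-/- against 29.5 in c-Maf+/- cells), and one more was so on neither. Fasn, fatty acid synthase itself, had 1 probe that was not well above background on either array (13.5 in c-Maf-/- and 5.22 in c-Maf+/- cells), so no fold is given for it.

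Acly, ATP citrate lyase, makes cytosolic acetyl-CoA from citrate and was at -0.074 ± 0.16, with one probe at 8267 in c-Maf-/- against 8186 in c-Maf+/- cells. Me1, malic enzyme, which supplies NADPH, was at 0.15 ± 0.12 over 3 probes that ranged from 0.00079 to 0.26. The Me1 probe nearest to 0 had 1526 in c-Maf-/- against 1498 in c-Maf+/- cells. Neither gene differed by more than 2 errors.

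Among the elongases, Elovl6, which lengthens palmitate to stearate, the substrate of the stearoyl-CoA desaturases, had signals of 47.4 in c-Maf-/- against 32.99 in c-Maf+/- cells (0.50 ± 0.34). With normexp the Elovl6 value was 0.18. Elovl1, which makes very long saturated chains, was at 0.13 ± 0.14 over 2 probes, and Elovl5, which acts on polyunsaturated chains, was at -0.048 ± 0.20. None of the 3 elongases differed by more than 2 errors.

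The SREBP genes and those that control SREBP were split in direction. Srebf1, Insig1 and Insig2 were above 0, Srebf2 and Scap were below it, and none differed by more than 2 errors. Srebf1, which encodes the SREBP-1 factors of fatty acid synthesis, had a signal of 109 in c-Maf-/- against 88.7 in c-Maf+/- cells (0.27 ± 0.24). Srebf2, which encodes SREBP-2, the factor of sterol synthesis, had signals of 577 and 1869 in c-Maf-/- against 530 and 2452 in c-Maf+/- cells, so its probes lay at 0.096 and -0.42. Scap, the escort protein of SREBP, was lower at 1928 in c-Maf-/- against 2286 in c-Maf+/- cells (-0.27 ± 0.20). Insig1, the SREBP target that retains SCAP in the endoplasmic reticulum, was at 0.41 ± 0.21, just under 2 errors, and Insig2, which has the same role, was at 0.14 ± 0.14 over 2 probes. Neither SREBP gene nor Scap reached 1.5-fold.

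Stard4, a soluble protein that carries cholesterol between membranes and whose gene is a known SREBP-2 target, stood apart from these regulators. Its 2 probes had signals of 202 and 127 in c-Maf-/- cells against 56.4 and 68.3 in c-Maf+/- cells. Both were higher in c-Maf-/-, by log2 differences of 1.81 and 0.87, and the gene value was 1.34 ± 0.17, or 2.53-fold. With normexp it was 0.83 and without background subtraction 0.98, under 2-fold in both cases. The median over these 6 regulators and carriers was 0.21, and it was -0.0090 over the members left when only probes with a signal of at least 100 on both arrays were used, which drops Stard4 and Srebf1.

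SREBP acts at promoters through sterol regulatory elements, usually beside CCAAT boxes bound by NF-Y, so the promoters of members were read from the RefSeq table (build GRCm38.p6; 250 bases before to 50 after a transcript start). Of the 35 members 28 matched, with 38 windows, and Scd1, Scd2, Fads1, Stard4, Fdps, Fdft1 and Sqle did not. The element core searched was TCACNCCAC on both strands, and 1 of 28 members held it (Hmgcs1), against 1.41% of 17492 protein-coding genes. CCAAT, on both strands, was in the windows of 23 of 28 members, against 42.3% of genes. The E-box CACGTG was in those of 6 of 28 (8.91% of genes). TGCTGAC, which is only a part of the Maf recognition element, was searched on both strands and was in 2 of 28, Acss2 and Cyp51 (4.96% of genes). In the windows printed here no motif overlapped another. A match describes letters in this window and is not a binding site.

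The promoters shown are those of the 4 members at least 1.5-fold higher that matched (Mvd, Msmo1, Hsd17b7 and Acss2) and of Hmgcs1, which holds the element core. The windows of Fads2, Acaca, Elovl6 and Acat2 held none of the 4 motifs. Of these, Fads2, Acaca and Elovl6 had log2 differences of 0.41, 0.42 and 0.50, and Acat2 one of -0.10. In the sequences that follow, capitals mark the motif matches, ATTGG being CCAAT on the other strand, and each sequence runs 5′ to 3′ on the strand of the gene.
Hmgcs1, chr13:119690101-119690400 on the plus strand: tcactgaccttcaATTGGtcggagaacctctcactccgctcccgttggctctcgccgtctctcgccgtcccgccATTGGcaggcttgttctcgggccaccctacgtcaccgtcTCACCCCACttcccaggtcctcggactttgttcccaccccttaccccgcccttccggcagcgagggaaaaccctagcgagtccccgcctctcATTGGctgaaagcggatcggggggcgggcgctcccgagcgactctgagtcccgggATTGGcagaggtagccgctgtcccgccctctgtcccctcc
Mvd, chr8:122443373-122443672 on the minus strand: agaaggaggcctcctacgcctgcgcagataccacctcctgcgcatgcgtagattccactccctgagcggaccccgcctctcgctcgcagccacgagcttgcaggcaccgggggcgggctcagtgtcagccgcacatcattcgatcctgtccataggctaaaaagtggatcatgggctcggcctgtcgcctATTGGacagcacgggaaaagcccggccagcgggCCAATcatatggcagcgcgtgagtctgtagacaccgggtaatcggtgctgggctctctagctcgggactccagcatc
Msmo1, chr8:64733529-64733828 on the minus strand: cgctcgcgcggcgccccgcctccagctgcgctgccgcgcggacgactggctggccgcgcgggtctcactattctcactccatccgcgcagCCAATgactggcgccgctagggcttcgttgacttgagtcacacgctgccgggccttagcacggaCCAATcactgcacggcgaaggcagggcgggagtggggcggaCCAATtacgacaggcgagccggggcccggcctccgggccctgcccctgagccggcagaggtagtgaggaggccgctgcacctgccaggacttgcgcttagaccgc
Hsd17b7, chr1:169969156-169969455 on the minus strand: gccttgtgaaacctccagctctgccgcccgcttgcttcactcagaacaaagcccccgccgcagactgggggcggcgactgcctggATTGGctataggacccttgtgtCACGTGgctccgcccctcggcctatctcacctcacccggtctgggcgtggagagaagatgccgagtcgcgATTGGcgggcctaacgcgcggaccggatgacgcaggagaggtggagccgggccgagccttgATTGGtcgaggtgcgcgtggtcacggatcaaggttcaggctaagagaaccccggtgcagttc
Acss2, chr2:155517793-155518092 on the plus strand: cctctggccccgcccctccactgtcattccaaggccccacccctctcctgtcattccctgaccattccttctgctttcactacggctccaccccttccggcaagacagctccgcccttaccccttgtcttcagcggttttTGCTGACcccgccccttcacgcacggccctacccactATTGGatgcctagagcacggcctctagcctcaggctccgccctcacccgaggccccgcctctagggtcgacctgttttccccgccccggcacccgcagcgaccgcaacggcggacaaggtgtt
In Hmgcs1 the element core TCACCCCAC begins at position -137, counted back from the transcript start, with CCAAT matches on both sides of it. Mvd holds 2 CCAAT matches and Msmo1 holds 3. Hsd17b7 holds 3 and an E-box, and Acss2 holds 1 and the TGCTGAC match.

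The mevalonate steps, which turn acetyl-CoA into squalene, had log2 differences above 0 in 7 of 8 members, with a median of 0.26. Of all genes, 46.3% were above 0. Mvd, mevalonate diphosphate decarboxylase, which makes isopentenyl diphosphate, was the 1 member of these steps at least 2-fold higher, where 1.43% of all genes were. It had a signal of 502 in c-Maf-/- against 233 in c-Maf+/- cells, a log2 difference of 1.08 ± 0.21, or 2.11-fold, and it fell just under 2-fold with normexp (0.91) and without background subtraction (0.96). The Mvd probe lies at chr8:124957750-124957809 (mm9), on the chromosome of Maf, 6.73 Mb from a Maf probe.

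At the entry of the branch, Acat2, the cytosolic thiolase that makes acetoacetyl-CoA, was at 164 in c-Maf-/- against 173 in c-Maf+/- cells (-0.10 ± 0.22). Hmgcs1, which makes HMG-CoA and whose promoter holds the element core, had signals of 4571 in c-Maf-/- against 3126 in c-Maf+/- cells (0.52 ± 0.20). A second Hmgcs1 probe was not well above background on either array.

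Of the 2 kinases that follow, Pmvk was higher by more than 2 errors and Mvk was not, and they were not tested against each other. Mvk, mevalonate kinase, was at 0.18 ± 0.14 with probes at 0.21 and 0.15, and Pmvk, phosphomevalonate kinase, was at 0.33 ± 0.14 with probes at 0.38 and 0.28. The probes of each kinase gave nearly the same value. Idi1, which isomerises isopentenyl diphosphate, was at 0.19 ± 0.20.

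Fdps, farnesyl diphosphate synthase, had 14706 in c-Maf-/- against 9621 in c-Maf+/- cells (0.59 ± 0.20), just past the 1.5-fold threshold. Fdft1, squalene synthase, commits farnesyl diphosphate to sterols, and its probes disagreed. One, whose coordinates span 4241 bases in the files, had 579 in c-Maf-/- against 369 in c-Maf+/- cells (0.62). The other had 98.2 in c-Maf-/- against 123 in c-Maf+/- cells (-0.35), which left the gene value at 0.14 ± 0.16 with an SD of 0.69 between probes.

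Of the 9 members of the steps after squalene, 8 were above 0, the median was 0.55, and 3 were at least 1.5-fold higher, with 0 at 2-fold. Sqle, squalene epoxidase, a rate-limiting oxygen-dependent step, had 2404 in c-Maf-/- against 1268 in c-Maf+/- cells (0.90 ± 0.20, or 1.86-fold), the member nearest to the 2-fold threshold from below as Mvd was from above. Lss, which closes the rings to give lanosterol, had 284 in c-Maf-/- against 190 in c-Maf+/- cells (0.56 ± 0.21). Both early steps were thus higher in c-Maf-/- cells, by more than 2 errors.

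Of the 4 enzymes that demethylate lanosterol, Cyp51, Msmo1 and Hsd17b7 were higher by more than 2 errors and Nsdhl was not. Cyp51, the lanosterol 14-alpha demethylase, had 189 in c-Maf-/- against 127 in c-Maf+/- cells (0.55 ± 0.21). Msmo1, the C4-methylsterol oxidase formerly called Sc4mol, had 4602 in c-Maf-/- against 2780 in c-Maf+/- cells (0.70 ± 0.20). Hsd17b7, the 3-ketosteroid reductase of the same step, had 378 and 312 in c-Maf-/- cells against 259 and 172 in c-Maf+/- cells (0.68 ± 0.15), while another Hsd17b7 probe was not well above background on either array. Nsdhl, the dehydrogenase that acts between Msmo1 and Hsd17b7, was at 0.16 ± 0.22 with probes at 0.28 and 0.046. The probe at 0.28 was dim, with 39.9 in c-Maf-/- against 32.3 in c-Maf+/- cells. The gene values of this demethylation step ran from 0.16 to 0.70, and whether its genes differ from each other was not tested.

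The last steps differed less than Sqle and Msmo1 did. Ebp, the sterol isomerase, had 13594 in c-Maf-/- against 12562 in c-Maf+/- cells (0.088 ± 0.20). Sc5d, which adds the C5 double bond, had 1264 in c-Maf-/- against 944 in c-Maf+/- cells (0.40 ± 0.20), just under 2 errors. Dhcr7, which makes cholesterol from 7-dehydrocholesterol, had 82.5 in c-Maf-/- against 83.9 in c-Maf+/- cells (-0.049 ± 0.24).

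**Figure D3:**
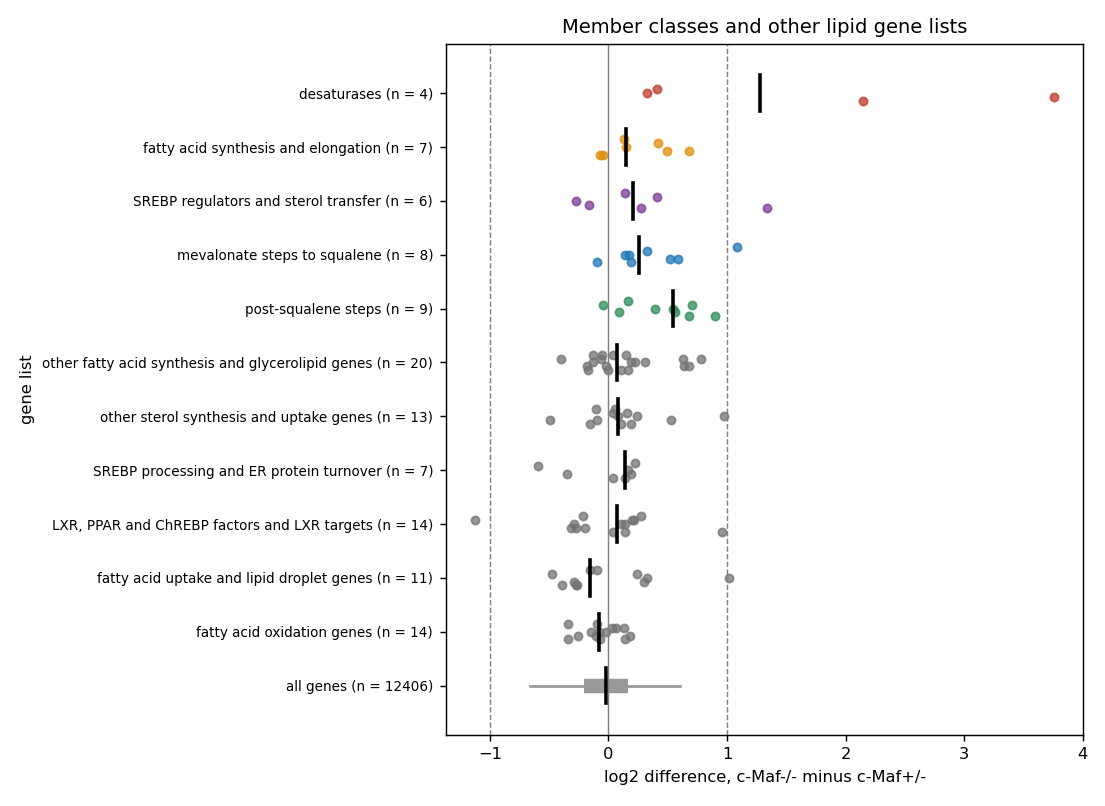
Log2 difference, c-Maf-/- minus c-Maf+/- (horizontal axis), of each measured gene in the 5 member classes (coloured) and in 6 other lists of lipid genes (grey), with black bars at the medians and dashed lines at 2-fold. The bottom row shows all 12406 genes, the thick bar from the 25th to the 75th percentile (-0.20 to 0.16) and the thin line from the 5th to the 95th (-0.66 to 0.61); the post-squalene median of 0.55 lies near the upper end of that line and the oxidation genes lie around 0.

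Other genes of lipid metabolism, listed by function, had medians nearer to that of all genes than the members as a set did. Members and lists were chosen with results of these arrays known, so nothing is read from this comparison. Of 20 measured genes of fatty acid, acyl-CoA and glycerolipid synthesis, 11 were above 0 and the median was 0.07. At least 1.5-fold higher were 4, where 5.38% of all genes were, and 0 were past 2-fold either way. The farthest from 0 were Dgat2, which makes triglyceride, at 0.78 ± 0.20 (4740 in c-Maf-/- against 2716 in c-Maf+/- cells), and Scd4, given above. Elovl7, an elongase, passed the detection call on the c-Maf+/- array alone (26.8 in c-Maf-/- against 59.9 in c-Maf+/- cells). Its scaled signals differed by 2.28-fold, lower in c-Maf-/- cells. That is not a bound, since the c-Maf-/- signal was above the lowest called well above background on its array (24.2).

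Among 13 other genes of sterol synthesis and uptake 9 were above 0, 0 were past 2-fold, near the shares of all genes given above, and the median was 0.08. Aacs, which activates acetoacetate for sterol synthesis, was at 0.53 ± 0.20. A gene of this list that lay farther from 0 on the higher side is not reported here. Of 7 genes of SREBP processing and protein turnover in the endoplasmic reticulum, 5 were above 0 and 0 were past 2-fold. Rnf139, a ubiquitin ligase of the endoplasmic reticulum, was at -0.59 ± 0.20, Mbtps2, the site-2 protease of SREBP, at -0.35 ± 0.19, and the median was 0.14.

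The list of LXR, PPAR and ChREBP factors and LXR targets, which also holds Ch25h, had 8 of 14 measured genes above 0 and a median of 0.07. Ch25h, which makes 25-hydroxycholesterol, an oxysterol known to hold back SREBP processing, was the 1 gene past 2-fold there, at 14311 in c-Maf-/- against 30728 in c-Maf+/- cells (-1.13 ± 0.20, or 2.19-fold lower). Ppard, a fatty acid sensing nuclear receptor, was at 0.95 ± 0.20. Fatty acid uptake and lipid droplet genes had 4 of 11 above 0 and a median of -0.15. Hilpda, a lipid droplet protein that inhibits lipolysis, was 2.03-fold higher (1.02 ± 0.14 over 2 probes), and Fabp4, a fatty acid binding protein, was at -0.48 ± 0.20. Fatty acid oxidation genes had 5 of 14 above 0, a median of -0.076 and 0 past 1.5-fold, where 5.38% of all genes were higher and 6.5% lower. The mitochondrial enzymes Hadh (-0.34 ± 0.20) and Cpt1a (-0.34 ± 0.15) were farthest from 0.

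**Figure D4:**
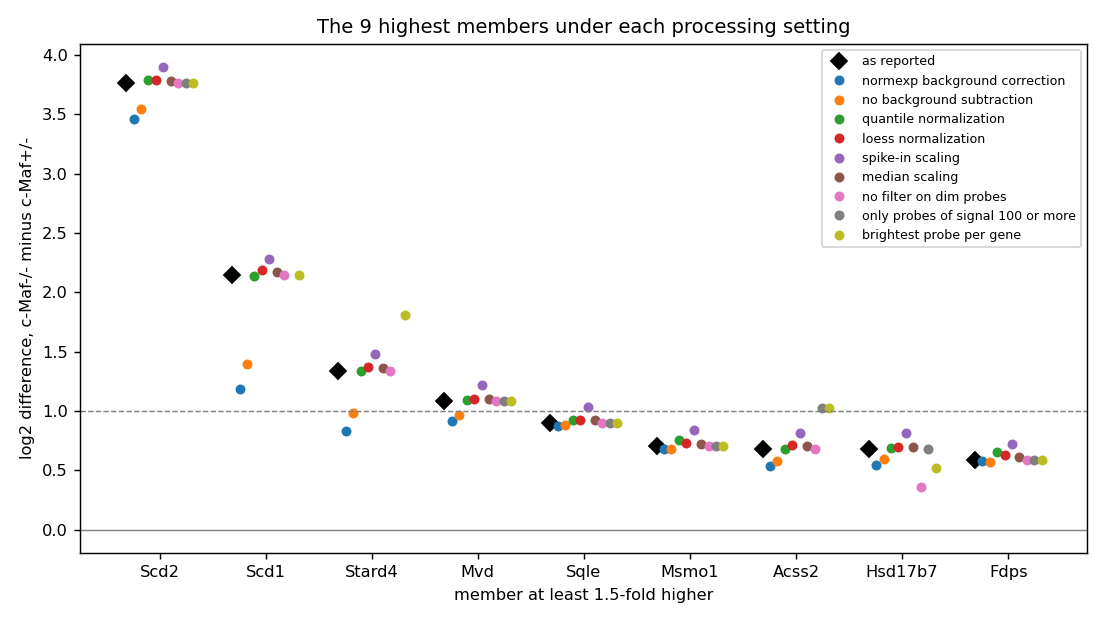
Log2 difference, c-Maf-/- minus c-Maf+/- (vertical axis), of the 9 members at least 1.5-fold higher (horizontal axis), under the reported processing (black diamonds) and 9 other settings (coloured points), with the dashed line at 2-fold. Every point lies above 0; Scd1 has no value under the setting that keeps only probes of signal 100 or more, and Stard4 has none there either.

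The directions held under most settings. The sign was the same under each setting that gave a value in 30 of 34 members, and the exceptions, Acat2, Acly, Elovl5 and Dhcr7, lay close to 0. Scaling on the 8 spike-in transcripts raised every log2 difference, and the median of all genes, by 0.14. With it, 262 of all genes were at least 2-fold higher and 141 lower, against 177 and 215 as reported, and 5 members were higher and 0 lower. Where 2 or more probes of a member were measured, they had the same sign in 11 of 14 members, and the exceptions were Fads2, Srebf2 and Fdft1. The other 20 measured members rested on 1 probe. Among the 11, the measured probes of Acaca overlap almost wholly, and a probe of Me1 lay at 0.00079. The settings reuse the same 2 arrays, and shares of all genes for these counts of signs were not computed.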

How the data were processed

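Total RNA from 2 preparations of LPS-treated macrophages, 1 per genotype, was labelled with Cy3 (50 ng each), per the labels' protocols. The deposited intensities were written by Agilent Feature Extraction 10.7.3.1 for array design 028005, per the file headers. They were background-subtracted and spatially detrended within the array by the authors, with surrogate values for low spots, and not normalized between arrays. The other deposited values used were mean and background intensities, the software's signal error and flags of 0 or 1 for detection, saturation and outliers.

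Spots flagged as outliers (149 on the c-Maf-/- and 136 on the c-Maf+/- array) were left out, and 0 were saturated. Log2 of the processed signal minus that of the array's 75th percentile (296 for c-Maf-/-, 291 for c-Maf+/-) was computed here and averaged over probes well above background on both arrays. The share of non-control spots well above background was 44.9% for c-Maf-/- and 45.3% for c-Maf+/-. Names were updated through RefSeq, and genes were counted over matched names only. A bound sets the bright signal against the higher of the dim signal and the lowest signal well above background. The number of arrays limits precision. The members, lists, thresholds and alternatives were chosen with earlier results of these data known. The named genes were all members, Maf, and from each other lipid list the genes past 2-fold and the 2 farthest from 0, apart from values not reported here. Scd3 was added after its value was seen. Some values are not reported here. Alternatives covered background, scaling, dim probes and probe summary (limma 3.58.1 in R 4.3.3, Python 3.11.15), and the code was tested on simulated data. A planned protein alignment was not made, since protein sequences were not used here.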

Additional observations from a re-analysis of the deposited data

How the results depend on the processing

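The 2 arrays give no replicate error, so a value was called moved when it changed by more than the median SD between probes of a gene (0.09). Where the gene's own SD between probes was larger, that was used, and a count was called moved when it changed by over 1.5 times. Genes whose probes disagree could thus shift further without being called moved, as Fdft1 did from 0.14 to 0.62 with the brightest probe. The count of members at least 2-fold higher, 4 as reported, came to 2 under normexp, also 2 when no background was subtracted, and 3 to 5 otherwise. In both of those settings Stard4 and Mvd fell under 2-fold. The median of all members (0.36) was 0.27 with normexp and 0.50 with spike-in scaling. For the desaturases (1.28) it was 0.74 with normexp, 0.84 without background subtraction, 1.41 with spike-ins, 2.04 with probes of signal 100 or more and 1.53 with the brightest probe. For fatty acid synthesis and elongation (0.15) it was 0.28 with spike-ins and 0.32 without the filter on dim probes, which lets in Fasn. For SREBP regulators and sterol transfer (0.21) it was 0.34 with spike-ins and turned to -0.0090 with probes of signal 100 or more, which leave 4 of the 6 genes. For the mevalonate steps (0.26) it was 0.40 with spike-ins, 0.43 with probes of signal 100 or more and 0.40 with the brightest probe. For the post-squalene steps (0.55) it was 0.41 with normexp, 0.45 without background subtraction, 0.68 with spike-ins and 0.40 without the filter on dim probes. Of the other values at each setting 70 summary values and 258 gene values did not move and 42 gene values did. Over all genes, 177 were at least 2-fold higher and 215 lower as reported, against 68 and 109 under normexp, 82 and 124 when no background was subtracted, and 885 and 871 when dim probes were let in. The higher side held 45.2% of calls as reported and 65.0% with spike-ins. Signal over background limits Scd1, Elovl6, Stard4 and Fads2, whose c-Maf+/- signals were low. It also limits a probe of Nsdhl (32.3 in c-Maf+/- cells) and the dimmer probe of Acss2 (57.6 in c-Maf+/- cells). No paired analysis was possible because each genotype had 1 array.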

Other observations

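The members that differed most, Scd2 and Scd1, have probes 88.4 kb apart on chromosome 19 by the coordinates in the files (mm9). Within 1 Mb of the Scd2 probe, 20 measured genes lay that are not among the 35. Their median log2 difference, c-Maf-/- minus c-Maf+/-, was -0.034, from -0.64 (Lbx1) to 0.68 (Scd4), and 0 were past 2-fold either way. Around Mvd on chromosome 8 there were 31 such genes, with a median of 0.037, from -0.34 (Banp) to 0.68 (Fbxo31), and 0 past 2-fold. Around Sqle on chromosome 15 there were 10, with a median of -0.00013, from -0.74 (Trib1) to 0.52 (Trmt12), and 0 past 2-fold. Around Stard4 there were 6, with a median of -0.25, from -0.75 (A830052D11Rik) to 0.30 (Wdr36), and 0 past 2-fold. Of all genes, 1.43% were at least 2-fold higher and 1.73% lower. With so few genes in a window, 0 is near those shares, and nothing is read from it. These windows were chosen after the values were seen, and genes are named as the ends of each range.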
